A study of Mus musculus with 6 samples.

Results

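The Ifi200 genes form a cluster on mouse chromosome 1 that encodes proteins of the PYHIN group. Of 6 listed members (Ifi202b, Ifi203, Ifi204, Ifi205, Aim2 and Pyhin1), 4 had a probe set annotated with that symbol alone, namely Ifi202b, Ifi203, Ifi204 and Aim2, with 1 probe set each, so 4 of 45037 probe sets were members. Members were chosen by platform symbol and without regard to signal. Pyhin1 is the older symbol of the gene that the platform lists as Ifi209, matched by gene ID, and its 2 probe sets are described beside the members under the current name. Ifi205 was found only on probe sets annotated to several genes, and no value is assigned to it. A further 5 probe sets belonged to 1 other family gene each (Ifi207, Ifi213 and Mndal), and 6 were annotated to several family genes, which gave 17 family probe sets in all.

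Lung RNA from adult female mice was hybridised to Affymetrix arrays, 3 arrays of (AKR/J x FVB/NJ)F1 mice (AKR_F1) and 3 of (DBA/2J x FVB/NJ)F1 mice (DBA_F1), to compare basal expression between the genotypes. Both crosses of inbred strains gave every animal 1 chromosome set from FVB/NJ, so a gene that differs between AKR/J and DBA/2J was measured in both groups together with the FVB/NJ copy. The mice are not described as treated or infected beyond anaesthesia and killing. The labels do not say whether the arrays of a group came from separate animals, so p-values measure only the spread between these samples, which may be technical.

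PYHIN proteins combine, in most members, a pyrin domain, which binds other pyrin domains, with a HIN domain, which binds DNA. The genes are classical targets of interferon, and mouse AIM2 senses double-stranded DNA in the cytosol and builds an inflammasome with the adaptor ASC (Pycard) and caspase-1. In mice p202, the product of Ifi202b, has HIN domains but no pyrin domain and can restrain AIM2. The mouse p204 protein of Ifi204 takes part in DNA sensing through STING and in growth control through the retinoblastoma protein. The number of genes in the cluster and their sequence are known to vary between mouse strains.

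The lung epithelial genes Sftpc (14.26 to 14.34) and Scgb1a1 (14.31 to 14.41) had high log2 signals on all 6 arrays. Of the 8 lung epithelium genes listed, 6 had positive and 2 negative differences between AKR_F1 and DBA_F1 (median 0.11). Of these genes 1 was called higher in AKR_F1, where 1.62% of all genes were called. The groups did not overlap in 5 of the 8, against 3788 of all 18194 genes. AKR_F1 replicates 1 and 2 stood apart from the other 4 arrays in squamous epithelium and skeletal muscle transcripts. The mean log2 signal of 7 squamous epithelium genes was 4.75, 4.65 and 8.92 in AKR_F1 replicates 1 to 3, against 8.62, 9.10 and 8.55 in DBA_F1 replicates 1 to 3. The mean of 8 skeletal muscle genes was 5.54, 5.06 and 9.72 in AKR_F1, against 9.20, 9.74 and 9.22 in DBA_F1. Adipocyte transcripts split the arrays differently, with all AKR_F1 arrays below all DBA_F1 arrays and AKR_F1 replicate 3 the lowest. The mean of 7 adipocyte genes was 7.42, 6.43 and 6.31 in AKR_F1, against 8.81, 9.39 and 8.24 in DBA_F1, and 4 of the 7 were called lower in AKR_F1. In whole lung, fewer cells of a type and less RNA per cell cannot be told apart.

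The promoters show how closely the family genes are related, and which of them carry an element that interferon-activated factors can bind. RefSeq promoter windows of the GRCm38.p6 build (sequence of C57BL/6J, none of the strains crossed here), 300 bases each, were found for 12 family genes, some of which have more than 1 window. The member Ifi204 had no window there and was not searched. The core of the interferon-stimulated response element, taken as 2 copies of GAAA separated by any 2 bases, was searched on both strands. The stretches printed here, in the direction of each gene, carry a best match in capitals, for Ifi205, Ifi203 and 4 other family genes. Among equally good matches in a window, one that reads AAATCGAAA or AAATTGAAA was preferred. Part of the likeness between the stretches can come from that choice. Ifi205 held 2 matches, of which 1 is shown, and the match in another window of Mndal is not shown.

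Ifi205, chr1:174031860-174031909, minus strand: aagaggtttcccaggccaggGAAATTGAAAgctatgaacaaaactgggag

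Ifi203, chr1:173942498-173942547, minus strand: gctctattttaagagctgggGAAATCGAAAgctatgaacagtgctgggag

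Mndal, chr1:173880194-173880243, minus strand: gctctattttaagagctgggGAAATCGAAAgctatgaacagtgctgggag

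Ifi211, chr1:173913054-173913103, minus strand: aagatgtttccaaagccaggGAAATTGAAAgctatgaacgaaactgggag

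Ifi213, chr1:173599316-173599365, minus strand: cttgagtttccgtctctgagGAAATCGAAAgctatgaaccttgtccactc

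Ifi209, chr1:173630760-173630809, plus strand: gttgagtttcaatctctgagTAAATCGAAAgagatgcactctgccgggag

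The core was present in 9 of the 12 family genes, against 3.99% of the 27025 genes with a promoter window of this length. The stretches of Ifi203 and Mndal above are identical, and the windows that hold them shared 97.6% of aligned bases, so these genes do not count as independent cases. The other window pairs of Ifi203 and Mndal were less alike, at 50.2% to 58.2%. Windows of Ifi206, Ifi208 and Ifi213 shared 98.9% to 99.3% of aligned bases. Those of Ifi211 and Ifi205 shared 94.0%, with 198 gap positions not counted, and those of Ifi207 and Ifi211 88.2%. All of these genes held the core, so the 9 are not 9 independent cases to set against 3.99%. In Ifi209 the capitals mark a stretch with 1 mismatch to the core, preferred by its letters over another stretch that was equally close. The windows of Aim2 and Ifi202b held no match, which says only that these letters are absent there. The Ifi202b window, 1 of those without a match, is shown whole to mark a second motif. The capitals mark its single match to the core TTCNNNGAA, a gamma-interferon-activated sequence that 9.55% of genes carry in such windows. No other family gene had a match to it, and 1 of 12 genes is near that share, so the match does not set Ifi202b apart.

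Ifi202b, chr1:173982795-173983094, minus strand: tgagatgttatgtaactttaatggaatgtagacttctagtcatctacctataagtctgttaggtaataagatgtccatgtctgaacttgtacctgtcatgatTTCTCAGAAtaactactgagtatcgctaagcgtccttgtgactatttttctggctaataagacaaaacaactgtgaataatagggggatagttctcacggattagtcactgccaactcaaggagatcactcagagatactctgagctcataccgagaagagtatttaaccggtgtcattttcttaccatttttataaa

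Aligned with the other family windows, that of Ifi202b shared 51.0% to 63.8% of aligned bases, and that of Aim2 49.3% to 61.8%. Gaps are not counted in these shares. Windows of unrelated genes were not aligned, so no background share is given for comparison. The window of Ifi209 shared 96.0% with that of Ifi214, and the window of Ifi213 shared 98.9% with that of Ifi208. These identities are of promoter windows and do not measure how alike the transcripts are. Whether probes of one family gene bind the RNA of a copy was not tested.

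No member was called different between AKR_F1 and DBA_F1 lung. Signals are log2 values per probe set, and a probe set was called at a Benjamini-Hochberg adjusted p under 0.05 in a limma fit over all 45037 probe sets. Of the 4 member probe sets 0 were called, where 1.53% of all probe sets were (0.884% as higher and 0.642% as lower in AKR_F1). At an unadjusted p under 0.05 there was 1 member, Ifi204, where 14.2% of all probe sets had such a value. Each difference below is the AKR_F1 mean less the DBA_F1 mean, with its limma standard error. The 95% intervals are not adjusted for the number of probe sets.

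Ifi202b, whose protein lacks the pyrin domain, had 6.68, 6.54 and 6.79 in AKR_F1 lung, against 6.73, 6.73 and 6.33 in DBA_F1 lung. The groups overlapped, and DBA_F1 replicate 3 was the lowest array. The difference was 0.07 ± 0.12 SE (limma adjusted p = 0.854), with an interval from -0.21 to 0.36, or 0.863-fold to 1.28-fold. Without DBA_F1 replicate 3 it was -0.06 (adjusted p = 0.861), so the sign of this small difference rested on that array for this probe set. By Affymetrix naming, the suffix of this probe set (1421551_s_at) marks probes shared between transcripts. A probe set annotated to both Ifi202b and LOC100044068 (1457666_s_at) differed by 0.13 (limma adjusted p = 0.534), and by 0.08 without DBA_F1 replicate 3. Its difference was positive in all 15 settings, and it was called in 0 of them.

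Ifi204, which encodes p204, had 5.33, 5.31 and 5.54 in AKR_F1, against 5.58, 5.63 and 5.78 in DBA_F1. Every AKR_F1 array was below every DBA_F1 array, but AKR_F1 replicate 3 was only just below DBA_F1 replicate 1. Non-overlapping groups were found for 1 of the 4 members and for 19.1% of all probe sets. The mean was 5.40 ± 0.12 in AKR_F1 and 5.66 ± 0.10 in DBA_F1 (SD, n = 3 each), a difference of -0.26 ± 0.10 SE (limma adjusted p = 0.284), or 0.833-fold with an interval from 0.711 to 0.975. The lowest pair of arrays, AKR_F1 replicates 1 and 2, were those with little squamous and muscle signal. The difference was -0.34 without AKR_F1 replicate 3 (adjusted p = 0.175) and -0.12 for AKR_F1 replicate 3 alone against DBA_F1 (adjusted p = 0.922). The part of the other tissues in this difference was not tested.

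Ifi203, a nuclear family member, had 5.17, 5.12 and 5.02 in AKR_F1, against 5.08, 5.16 and 5.17 in DBA_F1. The groups overlapped throughout. The difference was -0.03 ± 0.08 SE (limma adjusted p = 0.909), with an interval from -0.23 to 0.16. Its sign was positive (0.01) without AKR_F1 replicate 3.

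Aim2, the inflammasome sensor, had 3.39, 2.99 and 3.34 in AKR_F1, against 3.15, 3.23 and 2.91 in DBA_F1. The groups overlapped, and the difference was 0.14 ± 0.13 SE (limma adjusted p = 0.701), with an interval from -0.16 to 0.44. Its mean over all arrays, 3.17, lay in the lowest 40% of probe sets (4.72 or less), so a difference in Aim2 RNA may not be visible at this signal. The other 3 member probe sets lay above that level.

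Ifi209, the gene formerly called Pyhin1, had the largest differences among the family probe sets, though neither of its probe sets was called. Its brighter probe set (1435331_at) had 6.25, 6.69 and 6.81 in AKR_F1, against 6.40, 6.07 and 6.05 in DBA_F1. AKR_F1 replicate 1 fell below DBA_F1 replicate 1, so the groups overlapped. The difference was 0.41 ± 0.16 SE, or 1.33-fold with an interval from 1.03 to 1.72 (limma adjusted p = 0.305). The dimmer probe set (1435330_at) had 4.80, 4.82 and 5.0 in AKR_F1, against 4.60, 4.52 and 4.67 in DBA_F1. On this one the groups did not overlap, and the difference was 0.28 ± 0.09 SE, or 1.21-fold with an interval from 1.04 to 1.41 (limma adjusted p = 0.248). Over the main fit and 14 alternatives the differences ran from 0.30 to 0.64 and from 0.21 to 0.40, and neither probe set was called in any of them. The upper ends came from setting AKR_F1 replicate 3 by itself against the DBA_F1 arrays.

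**Figure D1:**
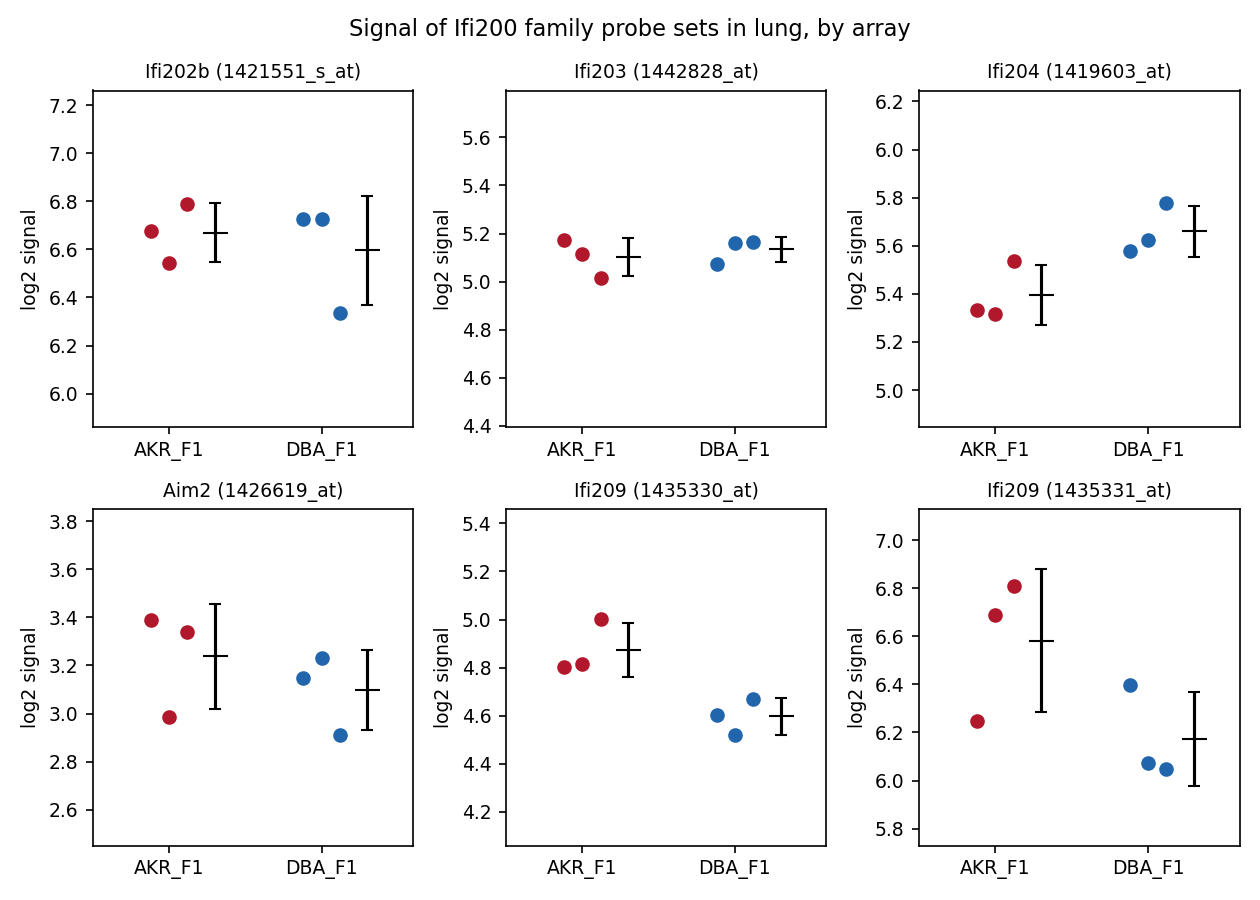
Log2 signal of the 4 member probe sets and the 2 Ifi209 probe sets on each array (points), with AKR_F1 left of DBA_F1 and the mean and SD (n = 3) as black bars. The groups are apart for Ifi204 (AKR_F1 lower) and for Ifi209 probe set 1435330_at (AKR_F1 higher), and overlap in the other panels.

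Among the other family genes, Ifi213 had 5.03, 5.08 and 4.81 in AKR_F1 by its brighter probe set, against 4.68, 4.75 and 4.79 in DBA_F1. The arrays did not overlap, with AKR_F1 replicate 3 close to the DBA_F1 arrays, and the difference was 0.24 ± 0.10 SE (limma adjusted p = 0.338). Its other probe set differed by 0.11, at a low signal. Ifi207 differed by -0.15, and the 2 probe sets of Mndal by 0.09 and 0.01. These last 3 also had low signals, with means over all arrays of 2.29 to 2.78.

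The 6 probe sets annotated to several family genes differed by -0.08 to 0.18. Those with Ifi203 among their genes differed by 0.18 (1451567_a_at), 0.09 (1425008_a_at) and -0.08 (1448775_at). The one with Ifi204 among its genes (1452348_s_at) differed by 0.07, where the probe set of Ifi204 alone differed by -0.26. None of these can be assigned to a single gene. The one with the largest difference (1451567_a_at) had 7.31, 7.27 and 7.29 in AKR_F1, against 7.27, 7.06 and 7.0 in DBA_F1. All AKR_F1 arrays were above the DBA_F1 arrays, by a margin that was nearly 0 for DBA_F1 replicate 1 (limma adjusted p = 0.38). A probe set annotated to Ifi205 and 1 other family gene (1452349_x_at) differed by -0.03, with an interval from -0.20 to 0.15, and cannot be assigned to either gene.

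Over all 17 family probe sets 0 were called, 12 had positive and 5 had negative differences, and in 4 the groups did not overlap. The median difference was 0.09, and 0.01 over all probe sets. The median absolute difference was 0.11 for the family and 0.09 for all probe sets. Read against the 19.1% of all probe sets whose groups do not overlap, 4 of 17 is near the background. The lowest and highest interval ends among the 17 were -0.49 (Ifi204) and 0.78 (Ifi209). No family probe set thus had an interval that reached a doubling or a halving of signal.

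**Figure D2:**
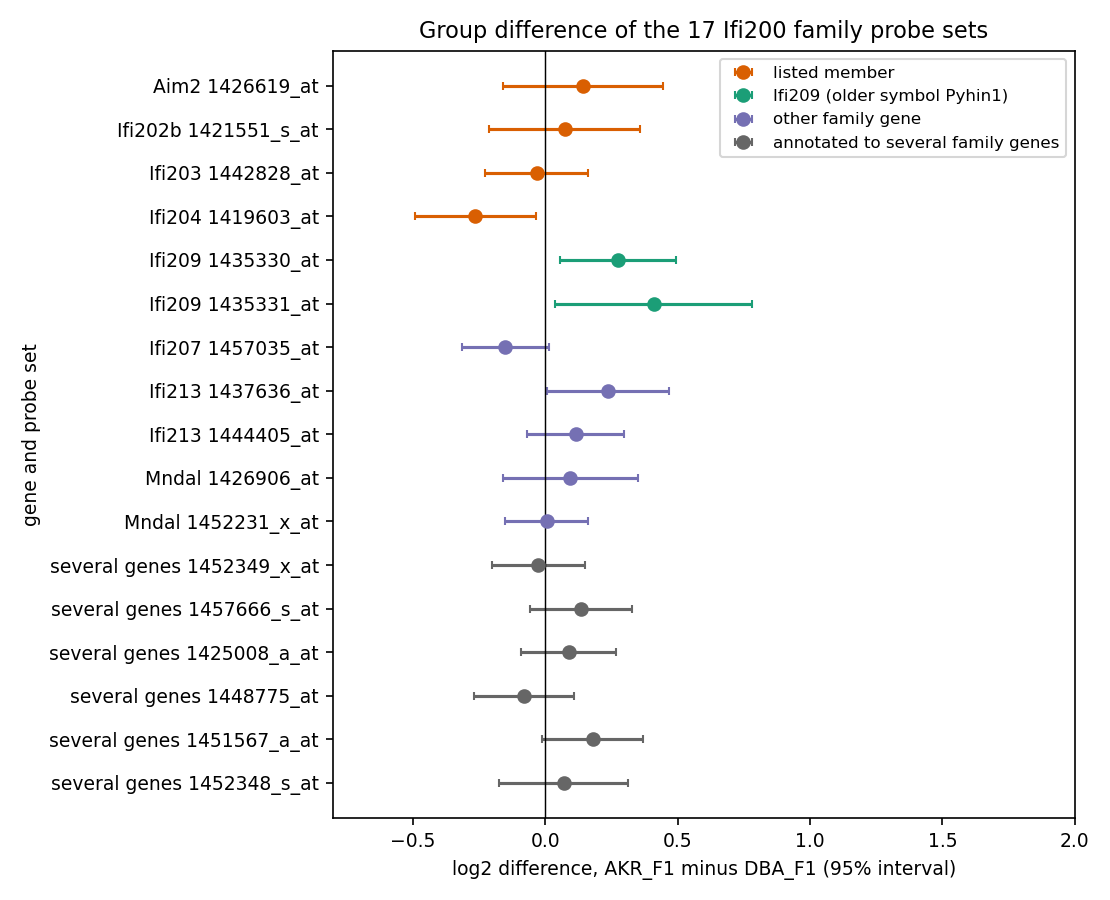
Log2 difference, AKR_F1 minus DBA_F1, of each of the 17 family probe sets (rows), with 95% confidence intervals from the limma fit and colours for the kind of annotation. The differences run from -0.26 (Ifi204) to 0.41 (Ifi209), and most intervals include 0.

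The members did not follow 1 common pattern over the 6 arrays. Across arrays Ifi202b correlated with Aim2 at r = 0.83, both being lowest in DBA_F1 replicate 3 among the DBA_F1 arrays, while Ifi204 correlated with Ifi202b at -0.32 and with Aim2 at -0.37. These are 6 arrays that share hybridisation and scaling, and the correlations are given as a description. Outside the family and above the low-signal level, the probe sets most like Ifi202b over the 6 arrays were those of Epsti1 (r = 0.998), an interferon-induced gene, the lysosomal protease Ctsz (0.998) and the mitotic transcription factor Foxm1 (0.996). Those most like Ifi204 were the iron exporter ferroportin (Slc40a1, 0.999), the autophagy enzyme Atg7 (0.995) and the RNA-binding protein Hnrnpf (0.994). They are the highest of all probe sets searched, over 6 arrays only. Slc40a1 had 6.40, 6.35 and 6.73 in AKR_F1, against 6.77, 6.87 and 7.09 in DBA_F1, with the 6 arrays in the same order as for Ifi204.

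The family is expressed largely in immune cells, and their markers were set beside it. The mean log2 signal of 10 macrophage and monocyte genes was 9.52, 9.42 and 9.63 in AKR_F1, against 9.33, 9.57 and 9.41 in DBA_F1, so the groups overlapped. Of these genes 0 were called, with 8 positive and 2 negative differences (median 0.10). The mean of 6 B cell genes was 6.87, 7.25 and 7.41 in AKR_F1, against 7.25, 7.15 and 6.94 in DBA_F1. The mean of 6 T cell genes was 7.65, 7.55 and 8.24 in AKR_F1, against 7.47, 7.57 and 7.51 in DBA_F1, with AKR_F1 replicate 3 the highest array. The mean of 8 thymus genes, which mark immature T cells and thymic epithelium, was 5.56, 4.76 and 6.30 in AKR_F1, against 4.68, 4.73 and 4.65 in DBA_F1, also highest in AKR_F1 replicate 3. Of these 0 were called, and 7 of 8 differences were positive. The mean of 6 dendritic cell genes was 6.52, 6.67 and 6.72 in AKR_F1, against 6.42, 6.53 and 6.56 in DBA_F1. Neutrophil genes differed mostly in the other direction, with 6 of 7 differences negative (median -0.36). Their mean was 7.64, 7.91 and 8.06 in AKR_F1, against 8.34, 7.91 and 8.99 in DBA_F1. The neutrophil granule protein Ltf was called lower in AKR_F1 (-1.74 ± 0.28 SE, limma adjusted p = 0.0282). The part of cell number in the values of the family was not tested.

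Genes of the pathways in which the family acts were counted next, each by its brightest probe set, where 1.62% of all 18194 genes were called. Of 9 inflammasome genes 0 were called, 5 with positive and 4 with negative differences (median 0.03, against 0.01 for all genes). Pycard, the adaptor that AIM2 recruits, had 7.93, 8.25 and 8.94 in AKR_F1, against 9.02, 9.13 and 8.87 in DBA_F1. AKR_F1 replicates 1 and 2 were low and replicate 3 lay among the DBA_F1 arrays, and the difference was -0.63 ± 0.22 SE (limma adjusted p = 0.265). Without AKR_F1 replicate 3 Pycard was called (-0.91, adjusted p = 0.00666), and the squamous and muscle lists split the arrays in the same way. The part of those tissues was not tested. Il18, a cytokine that caspase-1 matures, differed by 0.03 ± 0.09.

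Of 14 genes of cytosolic nucleic acid sensing 0 were called, with 12 positive and 2 negative differences (median 0.09), where all genes had 9555 positive and 8639 negative ones. The nucleotide phosphohydrolase Samhd1 differed by 0.07 ± 0.06 SE and the kinase Tbk1, which acts downstream of STING, by -0.09 ± 0.06. Of 16 genes of interferon receptors and signalling 0 were called, with 14 positive and 2 negative differences (median 0.09). Groups did not overlap in 0 of the 9 inflammasome genes, 4 of the 14 sensing genes and 5 of these 16. They did not in 9 of the 24 interferon-stimulated and 3 of the 16 growth control genes below, against 3788 of all 18194 genes. The kinase Jak1 differed by 0.05 ± 0.06 and the interferon gamma receptor chain Ifngr1 by 0.08 ± 0.08.

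Of 24 other interferon-stimulated genes 1 was called, and 20 had positive and 4 negative differences (median 0.08). The called gene was Xaf1, which encodes an antagonist of the apoptosis inhibitor XIAP. Its brightest probe set (1443698_at) had 8.98, 9.09 and 8.91 in AKR_F1, against 8.08, 8.13 and 8.0 in DBA_F1, a difference of 0.92 ± 0.07 SE (limma adjusted p = 0.0008). Its other probe set (1443621_at) went the opposite way, with 4.37, 4.14 and 4.31 in AKR_F1, against 8.38, 8.10 and 8.25 in DBA_F1 (-3.97 ± 0.10 SE, limma adjusted p = 3.03e-06). The 2 probe sets of Xaf1 thus give no single direction for the gene. Of 16 partners in growth control 0 were called (9 positive, 7 negative, median 0.03), and the transcription factors Jun and Fos differed by 0.18 ± 0.20 and 0.20 ± 0.34.

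**Figure D3:**
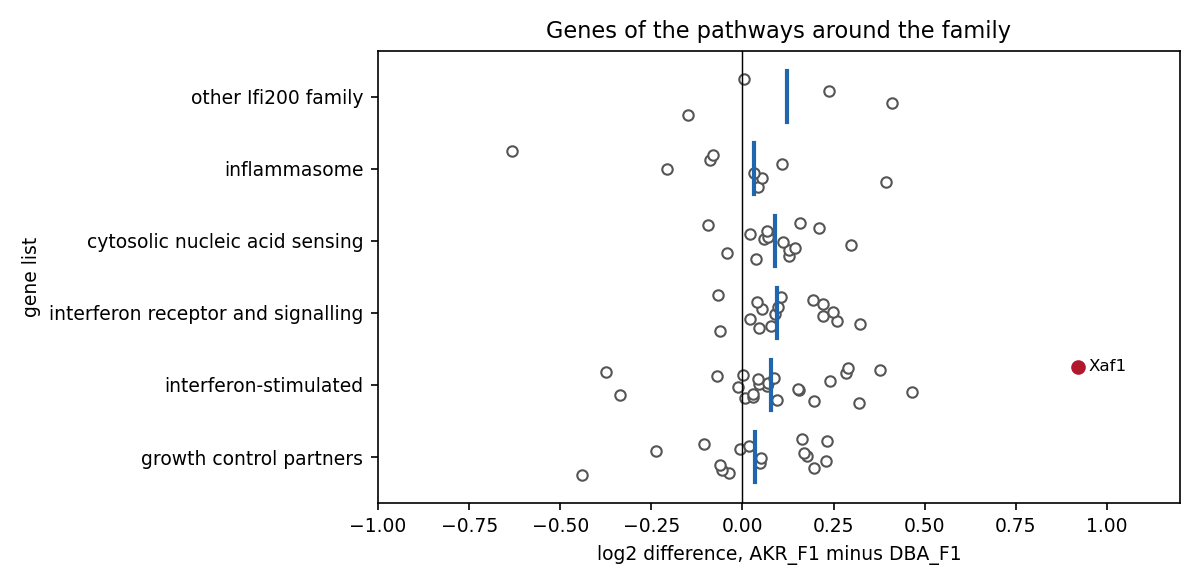
Log2 difference, AKR_F1 minus DBA_F1, of each measured gene (points) in 6 lists, with the list median as a blue bar and called genes filled. The filled point is Xaf1 at 0.92, given by 1 of its 2 discordant probe sets, and the list medians lie between 0.03 and 0.12.

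The chromosomal neighbours lie on the same parental chromosomes as the family. In these F1 mice the parental origin does not set them apart from other genes. Among the 20 measured genes on either side, 40 in all, 1 was called, where 1.62% of all genes were. This was Tagln2, an actin-associated protein of the calponin group, with 10.99, 10.90 and 10.91 in AKR_F1, against 10.72, 10.60 and 10.64 in DBA_F1. The groups did not overlap, and the difference was 0.28 ± 0.05 SE, or 1.22-fold (limma adjusted p = 0.0419). Its second probe set of similar brightness (1439407_x_at) differed by 0.18 ± 0.06 (adjusted p = 0.273), and the call was lost when any 1 AKR_F1 array, DBA_F1 replicate 2 or DBA_F1 replicate 3 was left out (adjusted p from 0.0505 to 0.194). It was also lost with eBayes without a trend (0.127), with replicate number as a block (0.0654) and for AKR_F1 replicate 3 alone against DBA_F1 (0.484).

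The neighbours' differences ran from -1.18 to 0.71 with a median of 0.02, and in 13 of the 40 the groups did not overlap, against 3788 of all 18194 genes. The nearest measured genes were not called on either side. Cadm3, a cell adhesion protein gene next to Aim2, differed by -0.03 ± 0.08 SE, and Ackr1, the atypical chemokine receptor, by -0.36 ± 0.11 (limma adjusted p = 0.206). On the far side Mptx1, a pentraxin, differed by 0.05 ± 0.07. These 3 were chosen for their position.

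**Figure D4:**
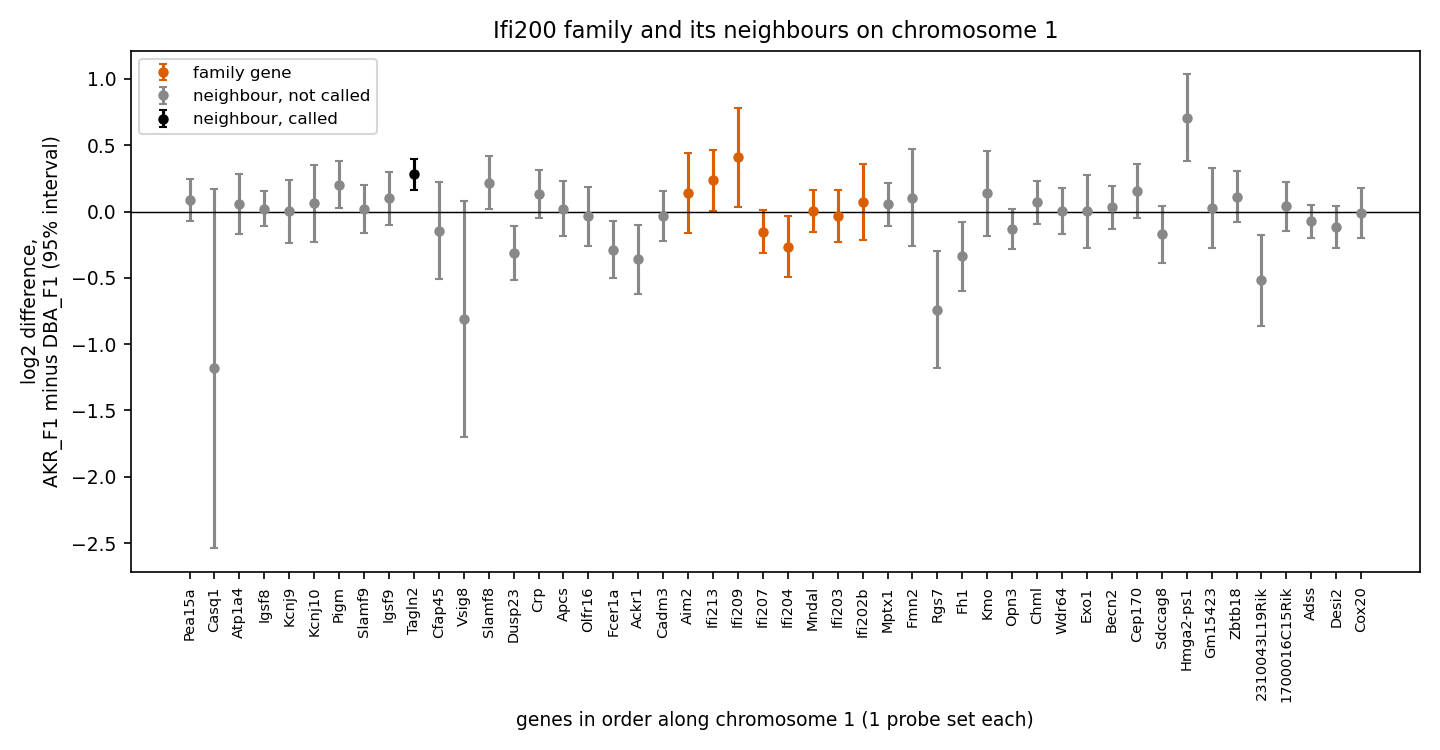
Log2 difference, AKR_F1 minus DBA_F1, with 95% confidence intervals, of 8 family genes (orange) and 40 neighbours in their order along chromosome 1, 1 probe set per gene. Only Tagln2 (black, 0.28) was called among the genes plotted, and the family genes lie between -0.26 and 0.41.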

How the data were processed

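The deposited table holds 1 log2 signal per probe set and array, made by the authors. MAS5 and RMA are listed in the submitters' processing notes, without versions or roles, and which of them made the table is not given in the sources used here. Array medians were 5.46 to 5.49, and values were used as deposited. No detection calls were used. Precision is limited by having 3 arrays per group. Leaving out 64 control probe sets gave 45037, of which 34945 had 1 platform symbol, 932 several and 9160 none. Of the first, 34741 matched by gene ID a RefSeq table of GRCm38.p6, used for current names and gene order. No intensity filter was applied.

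The groups were compared in R 4.3.3 by a linear model per probe set in limma 3.58.1 (eBayes with trend, group as the only term, two-sided, 4 residual and 3.83 prior degrees of freedom), with Benjamini-Hochberg adjustment over all probe sets. The fit was tested on simulated data. An exact permutation test of 3 against 3 arrays cannot go below p = 0.1 and was not used. Genes named were all family probe sets, called pathway and neighbour genes (up to 4 per list and 6 neighbours), else the 2 brightest of a list, and the 3 probe sets most like Ifi202b and like the other member with the largest difference. Exceptions, chosen after their values were seen, are Ltf and the neighbours in the closing section, besides the nearest neighbours. The lung epithelium markers Sftpc and Scgb1a1 were also named outside this rule. Members and lists were chosen with earlier results of these data known. Replicate numbers came from the titles.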

Additional observations from a re-analysis of the deposited data

How the results depend on the processing

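In the 14 alternatives, 0 of the 4 member probe sets were called in each (Aim2 is left out by the filter on the lowest 40%), and 0 of all 17 family probe sets. All probe sets called numbered 687 and ran from 245 to 1211 with 1 array left out. Leaving out AKR_F1 replicate 1 gave 245, AKR_F1 replicate 2 gave 247, DBA_F1 replicate 2 gave 276 and AKR_F1 replicate 3 gave 1211. The split of 398 higher and 289 lower in AKR_F1 turned to 543 and 668 without AKR_F1 replicate 3 and to 265 and 445 without DBA_F1 replicate 3. There were 169 for AKR_F1 replicate 3 alone against DBA_F1, a fit of 4 arrays that takes its spread from DBA_F1. Pathway genes called numbered 1 (Xaf1, called in every setting) and 2 with robust eBayes or array weights, when Ifngr2 was added, and 1 to 4 with 1 array left out (4 without DBA_F1 replicate 1, 2 without AKR_F1 replicate 3). Chromosome 1 neighbours called numbered 1, and 0 with eBayes without a trend or for AKR_F1 replicate 3 alone, 2 with robust eBayes or array weights and 0 to 3 with 1 array left out. The count was 0 when AKR_F1 replicate 1 or 2 or DBA_F1 replicate 2 was left out, 2 when DBA_F1 replicate 3 was, and 3 when AKR_F1 replicate 3 was. The causes were not tested. Deviations of same-numbered arrays from their group means were weakly correlated (r of 0.21, -0.16 and -0.04). With 3 arrays per group these values cannot show whether same-numbered arrays were handled together. With the replicate block 623 probe sets and 0 members were called, and Tagln2 was not (adjusted p = 0.0654), while Hmga2-ps1 was (0.0458).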

Other observations

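Some neighbours of the family on chromosome 1, chosen after their values were seen, split the arrays as the squamous and muscle genes did. Casq1, which encodes the calcium-binding protein calsequestrin of skeletal muscle, had 5.60, 5.47 and 7.95 in AKR_F1, against 7.43, 7.76 and 7.37 in DBA_F1 (log2 difference -1.18 ± 0.59 SE, limma adjusted p = 0.422). Vsig8 had 4.10, 3.79 and 5.45 in AKR_F1, against 5.10, 5.54 and 5.13 in DBA_F1 (-0.81 ± 0.39, limma adjusted p = 0.401). Both had low signals in AKR_F1 replicates 1 and 2 only. Without AKR_F1 replicate 3 both were called (-1.99 for Casq1 and -1.31 for Vsig8, limma adjusted p = 0.000258 and 0.00739). Hmga2-ps1, on the other side of the family, separated the groups without this split, with 5.88, 6.17 and 5.59 in AKR_F1, against 5.17, 5.24 and 5.11 in DBA_F1 (0.71 ± 0.14, limma adjusted p = 0.0619).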
